A study of Homo sapiens with 19 samples.

Results

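Cadherins and protocadherins are cell-surface proteins that hold like cells together by binding their own kind on the neighbouring cell. The genes here are the protein-coding genes named CDH or PCDH followed by a number, and the members of the PCDHA, PCDHB and PCDHG clusters. They were chosen by symbol, with earlier results of these data known. The count files list 86 of them among 44717 gene identifiers. They are 5 type I cadherins (CDH1, CDH2, CDH3, CDH4 and CDH15), 13 type II cadherins, 5 other cadherins (CDH13, CDH16, CDH17, CDH23 and CDH26), 12 non-clustered protocadherins and 51 clustered protocadherins (15 alpha, 15 beta and 21 gamma). PCDHB16, PCDHGB5 and PCDH20, 3 further genes that fit the rule, were not analysed here. PCDH11Y is counted with the others, and its values are not given.

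RNA was sequenced from 19 samples in 7 groups. 501Mel, a human melanoma cell line, carried the control hairpin shSCR1 or shBRG1 (3 samples each), or the control hairpin shSCR2 or shMITF (2 samples each). Hermes 3A, an immortalised line of human melanocytes, carried shSCR, shBRG1 or shMITF (3 samples each). shBRG1 silences BRG1, the SMARCA4 gene product and motor subunit of a chromatin-remodelling complex, and shMITF silences MITF, the transcription factor of the melanocyte lineage. All groups, controls included, received a lentiviral short hairpin RNA and were selected with puromycin. Hermes 3A cells grew with a phorbol ester, cholera toxin, stem cell factor and endothelin, which the 501Mel medium lacked, so that cell line and medium cannot be told apart. Both knockdowns in Hermes 3A cells were compared with the same 3 shSCR samples. Nothing in the labels says that samples of a group came from separate cultures, and p-values then measure only the spread between these samples, which may be technical.

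Type I cadherins, the classical E-, N- and P-cadherin among them, and type II cadherins bind catenins inside the cell and through them the actin skeleton. In skin, E-cadherin (CDH1) ties melanocytes to keratinocytes, and melanoma cells often carry N-cadherin (CDH2) in its place. The clustered protocadherins lie side by side on chromosome 5. Each alpha and gamma gene has its own promoter and first exon, spliced to constant exons that the whole cluster shares, whereas each beta gene is a gene of a single coding exon. Reads from the shared exons cannot be assigned to 1 alpha or gamma gene, and how the counting treated them is not given in the sources used here, so the levels of single alpha and gamma genes are uncertain.

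The counts on genes came to between 29158502 and 78857900 per sample. Levels below are CPM, the counts on a gene brought to 1 common library total, with libraries scaled by TMM (trimmed mean of M-values) over all 19 samples, and a gene is called when its adjusted p is under 0.05 and its log2 fold change exceeds 1 in size. SMARCA4 fell from 178 to 193 CPM with shSCR1 to 35.7 to 40.4 CPM with shBRG1 in 501Mel cells, and from 227 to 255 CPM to 44.4 to 47.5 CPM in Hermes 3A cells. MITF stood at 1045 and 1183 CPM with shSCR2 and at 492 and 545 CPM with shMITF in 501Mel cells. In Hermes 3A cells MITF stood at 1014, 1031 and 1119 CPM with shSCR and at 455, 719 and 544 CPM with shMITF. Replicate 2 of Hermes 3A shMITF stood apart from its group, with the highest MITF and with SOX10 at 1275 CPM against 419 and 690 CPM in the other 2 samples. The melanocyte marker list (7 genes) summed to 29260 to 31460 CPM with shSCR1 and 3100 to 3394 CPM with shBRG1 in 501Mel cells, and to 20690 to 23200 CPM with shSCR2 and 11350 to 11760 CPM with shMITF. In Hermes 3A cells it summed to 63350 to 64540 CPM with shSCR, 30240 to 31880 CPM with shBRG1 and 25930 to 34010 CPM with shMITF. Of the marker lists of other cell types, keratinocyte genes summed to between 27.5 and 65.7 CPM, with KRT1, KRT5 and KRT14 at 0 counts in the shSCR and shBRG1 samples of Hermes 3A and not listed for its shMITF samples. Fibroblast genes summed to between 3.30 and 19.3 CPM, endothelial genes to between 0.245 and 14.1 CPM and leukocyte genes to between 0.147 and 1.39 CPM. The fibroblast sum moved with shBRG1 in 501Mel cells, from 3.50 to 4.84 CPM up to 15.9 to 19.3 CPM, and the keratinocyte sum with shMITF in Hermes 3A cells, from 32.76 to 35.38 CPM up to 43.96 to 65.7 CPM. Nearly all of the keratinocyte sum was KRT10, at 64.6, 44.6 and 43.3 CPM in Hermes 3A shMITF (log2 fold change 0.64, not called). KRT10 also stood at 27.0 to 37.2 CPM in the 501Mel samples. The part of these marker lists in the results was not tested.

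The first comparison asked which family members the melanoma line and the melanocyte line expressed. In shSCR1 cells of 501Mel, 18 of the 86 genes reached a mean of 1 CPM and in shSCR2 cells 10, against 26 in shSCR cells of Hermes 3A. Of 54 members tested between these control groups, 13 were higher in 501Mel cells and 28 were lower. These are 24.1% and 51.9% of the tested members, against 23.1% and 18.2% of all 18731 genes tested. A gene near 0 in 1 line passed the count filter only through the line where it was high, so that these shares describe levels and add no support to them. The lower genes were mostly clustered protocadherins (22 of 31 tested, with 4 higher), whereas 5 of 11 tested type I and type II cadherins were higher and 3 were lower.

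P-cadherin, encoded by CDH3 (chr16:68636189-68722616, plus strand, GRCh38), was the most abundant member per length in both lines. It stood at 29.5 ± 2.21 CPM per kilobase of exon (SD, n = 3) in 501Mel shSCR1 and at 44.2 ± 0.899 CPM per kilobase (SD, n = 3) in Hermes 3A shSCR. In 501Mel shSCR1 the next were CDH24 at 5.10 ± 0.403 and CDH19 at 3.80 ± 0.188 CPM per kilobase (SD, n = 3), both type II cadherins. CDH19 (chr18:66501083-66604138, minus strand, GRCh38) is known from neural crest derivatives and Schwann cell precursors. In Hermes 3A shSCR the second was the gamma protocadherin PCDHGC3 at 33.9 ± 1.36 CPM per kilobase, followed by CDH19 at 14.1 ± 1.22, PCDHGA12 at 10.2 ± 0.619 and CDH1 at 6.33 ± 0.200 CPM per kilobase (SD, n = 3). These neighbours in the order were separated by more than their spread. In 501Mel shSCR1 all members after the first 3 stood below 1 CPM per kilobase, with PCDHGB4 at 0.757 ± 0.147 and CDH7 at 0.638 ± 0.0281, which do not differ beyond their spread. In 501Mel shSCR2 the order after CDH3 was another. CDH19 stood at 7.10 ± 3.44, CDH24 at 2.41 ± 0.894 and CDH7 at 1.29 ± 0.194 CPM per kilobase (SD, n = 2).

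PCDHGC3 (chr5:141475947-141512979, plus strand, GRCh38) showed the widest gap between the lines. It had 8371, 6273 and 7724 counts in Hermes 3A shSCR and 4, 3 and 1 counts in 501Mel shSCR1, a log2 difference of -11.54 (SE 0.12, adjusted p = 6.0e-29 in edgeR). All 7 samples of 501Mel cells with shRNA other than shBRG1 held between 0 and 4 counts. N-cadherin, CDH2, stood at 13.1, 14.0 and 14.8 CPM in Hermes 3A shSCR and between 0.0272 and 0.0613 CPM in the 5 control samples of 501Mel cells. The log2 difference between shSCR1 and shSCR was -8.00 (SE 0.21, adjusted p = 4.4e-21 in edgeR). E-cadherin, CDH1, stood at 38.3, 40.5 and 38.5 CPM in Hermes 3A shSCR against 2.94, 2.92 and 2.22 CPM in 501Mel shSCR1 (log2 difference -3.83, SE 0.092).

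CDH24, CDH7, CDH4 and CDH12 were higher in 501Mel cells, by 2.06, 1.81, 3.42 and 2.89 on the log2 scale, as was CDH5 by 1.18 at 20 to 23 counts per sample. Among non-clustered protocadherins, PCDH8, PCDH10, PCDH15 and PCDH17 were higher and PCDH7 and PCDH18 were lower in 501Mel cells, with log2 differences of -5.56 and -1.21, the latter -0.96 and not called with library sizes in place of TMM. PCDH15 had no count in any shSCR sample of Hermes 3A and 12 to 15 counts in 501Mel shSCR1. In the gamma cluster, PCDHGA10, PCDHGA11 and PCDHGA12 were lower in 501Mel cells with log2 differences of -3.94, -5.07 and -6.22, the last -5.11 with both 501Mel control groups pooled. PCDHGB7 and PCDHGB3 were lower by less, at -1.63 and -1.07, and PCDHGB3 was not called with library sizes (-0.81) or without 501Mel shSCR1 replicate 1 or Hermes 3A shSCR replicate 2 (-0.99 and -0.98). PCDHGB4, in the middle of the cluster, stood at similar levels, 4.53 to 6.39 CPM against 6.39 to 6.85 CPM (log2 difference -0.34, SE 0.12). The beta genes held at most 12 counts in any shSCR1 sample, and the 15 together summed to 1.02 ± 0.285 CPM in 501Mel shSCR1 against 11.5 ± 0.222 CPM in Hermes 3A shSCR (SD, n = 3). The gamma genes summed to 22.8 ± 1.29 against 298.2 ± 9.88 CPM, and the alpha genes to 0.331 ± 0.115 against 2.87 ± 0.192 CPM (SD, n = 3).

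The shSCR1 and shSCR2 control groups of 501Mel cells were not alike for these genes. PCDHGA12 stood at 0.613, 0.758 and 0.555 CPM with shSCR1 and at 2.44 and 2.57 CPM with shSCR2. PCDHGC5 had 83, 53 and 27 counts with shSCR1 and 0 and 1 counts with shSCR2. The gamma sum was 22.8 CPM with shSCR1 and 13.6 CPM with shSCR2. Values with both control groups pooled are therefore given beside the results in 501Mel cells that they change.

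The knockdown comparisons asked how the family responded to shBRG1 or shMITF in each line. In 501Mel cells shBRG1 also lowered MITF and SOX10 (log2 fold changes -1.55 and -2.44), where shMITF gave -1.06 for MITF. In Hermes 3A shBRG1 these values were -0.43 and -0.40, neither called. Loss of BRG1 and the fall of MITF and SOX10 cannot be told apart in 501Mel shBRG1. In 501Mel shBRG1, 17 of 50 tested members rose (34.0%) and 10 fell, against 21.7% and 17.4% of all 20514 genes tested. In 501Mel shMITF, 8 of 35 tested members rose and none fell in edgeR, 22.9% and 0%, against 5.59% and 3.40% of all 17701 genes tested, with 1 member lower at an unadjusted p under 0.05 and 0 lower in DESeq2. In Hermes 3A shBRG1, 16 of 57 rose and 2 fell, 28.1% and 3.51%, against 5.78% and 3.47% of all 17222 genes tested. In Hermes 3A shMITF, 3 of 52 rose and 3 fell, 5.77% each, against 3.35% and 4.04% of all 16508 genes tested. The 86 genes are not independent of each other, since cluster members share exons and a chromosomal neighbourhood, and genes near 0 in the controls passed the count filter only through the knockdown samples. The plot of log2 fold changes by family shows to which families the called members belong. With both 501Mel control groups pooled, the members that fell in 501Mel shBRG1 went from 10 to 3 and those that rose in 501Mel shMITF from 8 to 1. In Hermes 3A shBRG1, 13 of the 16 that rose were clustered protocadherins. In Hermes 3A shMITF all 6 called members were type I or type II cadherins, and none of 34 tested clustered protocadherins was called in edgeR (1 at an unadjusted p under 0.05, 0 called in DESeq2).

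**Figure D1:**
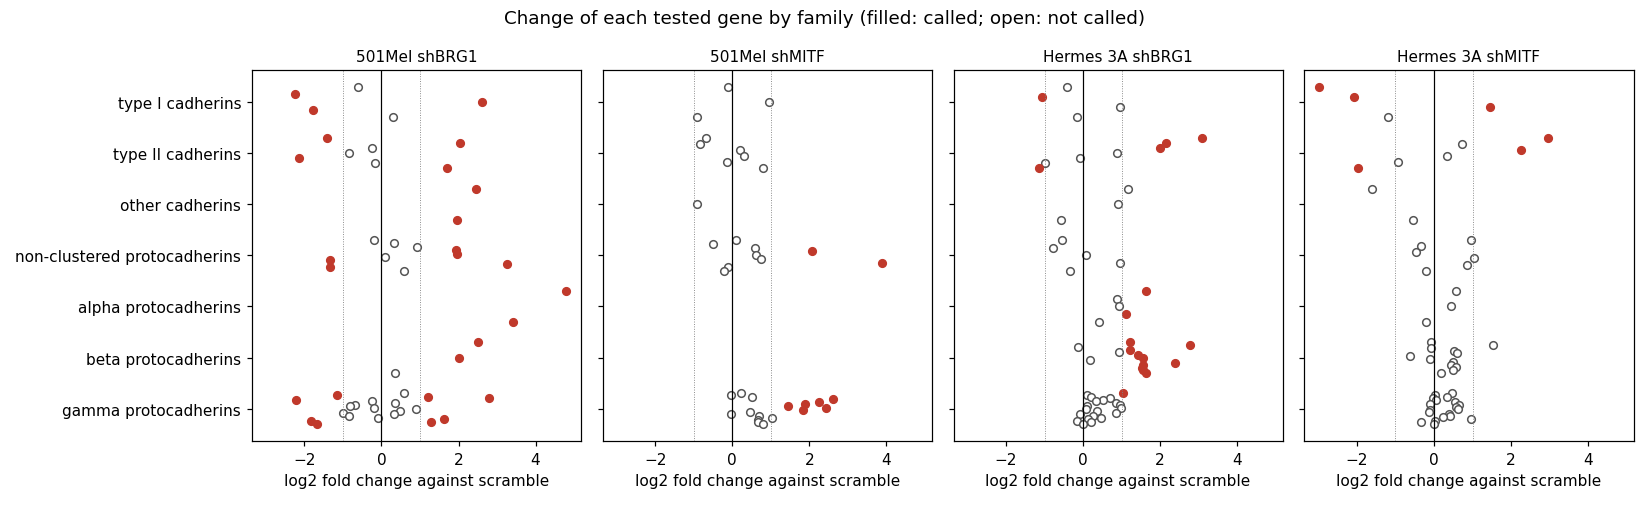
Log2 fold change against the scramble control (x axis) of each tested gene in 4 knockdown comparisons, by family (y axis), with 1 point per gene, filled where called and open where not, and dotted lines at -1 and 1 (PCDH11Y is not drawn). The filled points of Hermes 3A shBRG1 lie mostly in the beta row and to the right of 1, and those of Hermes 3A shMITF lie only among type I and type II cadherins.

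CDH3 was the type I cadherin with the most RNA and it fell with shBRG1 in 501Mel cells. Its levels there were 53.7, 56.0 and 57.7 CPM, against 168, 194 and 189 CPM with shSCR1 and 95.0 and 116 CPM with shSCR2. All 3 knockdown samples lay below all 5 controls, and the log2 fold change was -1.78 (SE 0.055, adjusted p = 9.0e-19 in edgeR), or -1.47 with both control groups pooled. With shBRG1 in Hermes 3A cells CDH3 was at 244, 247 and 245 CPM against 279, 278 and 269 CPM, a log2 fold change of -0.16 that was not called. With shMITF in 501Mel cells it was at 149 and 248 CPM, above both shSCR2 samples, and the log2 fold change of 0.96 was not called (adjusted p = 0.052 in edgeR). It was called with unscaled library sizes (1.05) and without shMITF replicate 1 (1.29).

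With shMITF in Hermes 3A cells CDH3 was at 49.7, 238 and 64.4 CPM. Replicates 1 and 3 lay far below the shSCR samples, while replicate 2 lay near them. Replicate 2 also stood apart in MITF and SOX10, and the part of either was not tested. The log2 fold change was -1.20 (SE 0.52, adjusted p = 0.15 in edgeR) and was not called, and without replicate 2 it was -2.25 (adjusted p = 0.00045 in edgeR).

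CDH1 lies 14608 bases from the end of CDH3, on the same strand (chr16:68737225-68835548, GRCh38). With shMITF in Hermes 3A cells it was at 1.99, 10.9 and 1.73 CPM against 38.3, 40.5 and 38.5 CPM with shSCR. All 3 samples lay below the controls, with replicate 2 again the highest. The log2 fold change was -2.97 (SE 0.63, adjusted p = 0.016 in edgeR) and -4.37 without replicate 2, and the call was lost when any single shSCR sample was left out (adjusted p between 0.062 and 0.11). With shBRG1 in Hermes 3A cells CDH1 was at 29.8, 28.1 and 28.8 CPM, a log2 fold change of -0.42 (SE 0.059) that passed the p threshold but not the threshold on fold change. In 501Mel cells CDH1 was low throughout, between 0.484 and 2.94 CPM, with log2 fold changes of -0.62 for shBRG1 and -0.10 for shMITF, neither called.

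CDH2 was called higher with shMITF in Hermes 3A cells and with shBRG1 in 501Mel cells. In Hermes 3A cells it went from 13.1, 14.0 and 14.8 CPM to 49.8, 29.2 and 33.4 CPM with shMITF (log2 fold change 1.45, SE 0.20, adjusted p = 0.0034 in edgeR). With shBRG1 in Hermes 3A cells it was at 30.1, 25.0 and 25.9 CPM, all above the controls, and the log2 fold change of 0.96 (SE 0.076) did not reach the fold threshold, whereas it was 1.07 with library sizes, 1.01 without shBRG1 replicate 2 and 1.00 without shSCR replicate 3, and called in each. In 501Mel cells shBRG1 took it from 3, 3 and 1 counts to 19, 23 and 15 counts (log2 fold change 2.60, SE 0.46). At 0.295 to 0.395 CPM this level was still far below that of any Hermes 3A sample. CDH2 passed the count filter there only through the shBRG1 samples. With shMITF in 501Mel cells it had 3 and 20 counts, against 1 and 2 with shSCR2, and was too low to be tested.

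The other type I genes were sparse. CDH15, the M-cadherin of muscle, fell in 3 comparisons, by 2.24 in 501Mel shBRG1, by 1.06 in Hermes 3A shBRG1 and by 2.09 in Hermes 3A shMITF on the log2 scale, from no more than 47 counts in any control sample. In 501Mel cells this was not called with both control groups pooled (adjusted p = 0.15 in edgeR). CDH15 and CDH8 were the members that fell in Hermes 3A shBRG1, and their number was 0 without shSCR replicate 2 and 1 without shSCR replicate 1 or any shBRG1 sample. In Hermes 3A shMITF the 3 members that fell, CDH1, CDH15 and CDH8, were 0 without any single shSCR sample and 1 without shMITF replicate 3. CDH4, or R-cadherin, was tested in 501Mel cells and not called in either comparison (0.30 with shBRG1 and -0.90 with shMITF).

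**Figure D2:**
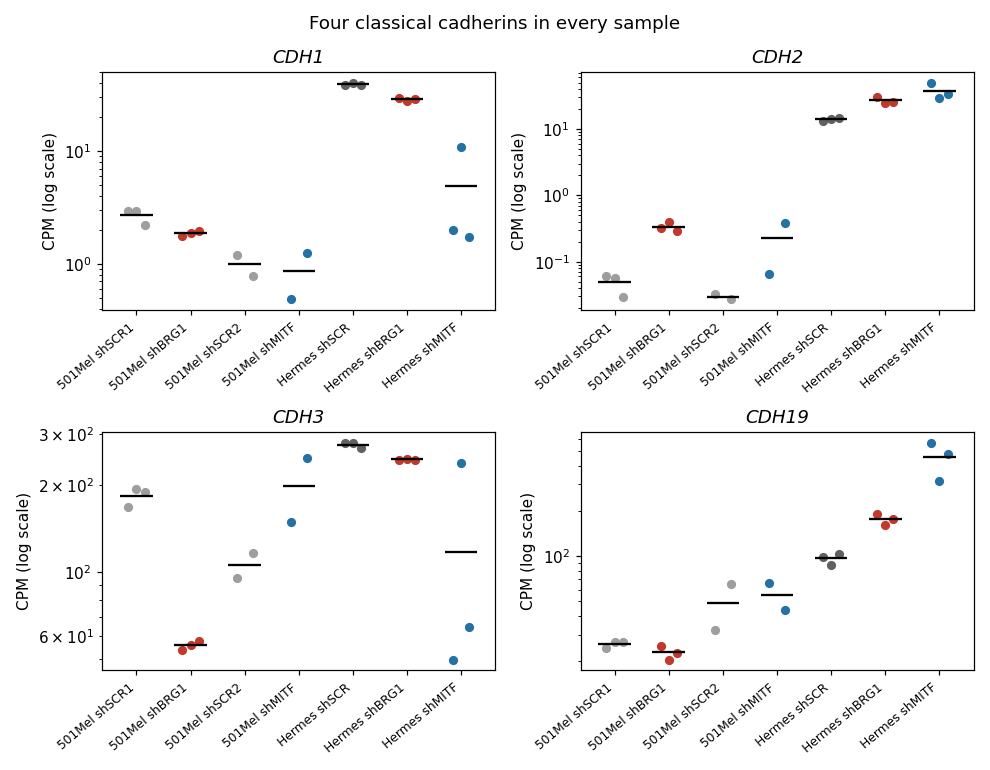
CPM on a log axis (y axis) of CDH1, CDH2, CDH3 and CDH19 in each sample of the 7 groups (x axis, Hermes standing for Hermes 3A), with a point per sample and a line at the group mean. In Hermes 3A shMITF, CDH1 and CDH3 are low in 2 of 3 samples, while CDH2 and CDH19 lie above the shSCR samples in all 3.

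Of the type II cadherins, CDH19 was the most abundant in Hermes 3A cells and it rose with shMITF there. It went from 98.2, 87.4 and 104 CPM to 567, 315 and 480 CPM (log2 fold change 2.26, SE 0.22, adjusted p = 0.00072 in edgeR), which placed it above CDH3 as the leading member per length at 66.1 ± 18.7 CPM per kilobase (SD, n = 3). The lowest of the 3 was again replicate 2. With shBRG1 it was at 190, 161 and 176 CPM, a log2 fold change of 0.87 (SE 0.054) that passed the p threshold but not the fold threshold. In 501Mel cells CDH19 did not follow. It was at 25.3, 20.5 and 22.8 CPM with shBRG1 against 24.6, 26.9 and 26.8 CPM with shSCR1 (log2 fold change -0.25, not called), and the sign of this value turned to 0.10 when library sizes replaced TMM. With shMITF it was at 66.4 and 43.8 CPM against 32.0 and 65.4 CPM with shSCR2, and these groups overlapped.

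CDH11, the OB-cadherin of mesenchymal cells, also rose in both Hermes 3A comparisons from a low level. It was at 0.685, 0.206 and 0.776 CPM with shSCR, at 2.45, 2.69 and 2.40 CPM with shBRG1 and at 4.12, 7.23 and 1.47 CPM with shMITF. Here replicate 2 of shMITF was the highest of its group. All knockdown samples lay above all controls, with log2 fold changes of 2.14 (SE 0.26) and 2.95 (SE 0.64), the latter losing its call when any shSCR sample was left out (adjusted p between 0.052 and 0.072). CDH11 passed the count filter in both comparisons only through the knockdown samples, so that its calls only describe levels. The fibroblast marker list was at 6.62 to 8.05 CPM with shSCR, 5.44 to 6.24 with shBRG1 and 3.30 to 13.04 with shMITF, most of it LUM with shSCR. PDGFRA, a receptor of mesenchymal cells on that list, was called higher in both comparisons, as CDH11 was (log2 fold changes 2.04, SE 0.29, and 2.14, SE 0.42). PDGFRA stood at only 0.26 to 0.46 CPM with shSCR. LUM and COL1A1, also tested from that list, were not called in either comparison. LUM had log2 fold changes of -0.79 with shBRG1 and -0.49 with shMITF, and COL1A1 had 0.65 and 0.07. The part of other cells in these values was not tested. CDH8 fell in both Hermes 3A comparisons (-1.15 and -1.98) and rose with shBRG1 in 501Mel cells (1.70). CDH7 had log2 fold changes of -0.99 and -0.93 in the Hermes 3A comparisons, neither called, and CDH24 had -0.85 with shBRG1 in 501Mel cells, not called. Under 100 counts per sample, CDH18 rose and CDH5 and CDH12 fell in 501Mel shBRG1, and CDH10 and CDH18 rose in Hermes 3A shBRG1. CDH18 in both lines and CDH10 in Hermes 3A cells passed the count filter only through the shBRG1 samples. The calls of CDH12 and CDH18 in 501Mel cells were lost with both control groups pooled (adjusted p = 0.063 and 0.081 in edgeR). CDH20 and CDH22 had at most 8 counts in any sample, CDH6 at most 12, and CDH9 was listed only for shSCR2 and shMITF of 501Mel cells with 1 count in all.

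Among the other cadherins, CDH23, a stereocilia protein of the inner ear, rose with shBRG1 in 501Mel cells. It went from 0.980, 0.550 and 0.934 CPM to 3.05, 3.71 and 3.11 CPM (log2 fold change 1.97, SE 0.18, adjusted p = 5.2e-10 in edgeR). In Hermes 3A cells it had log2 fold changes of 0.90 with shBRG1 and -1.62 with shMITF, neither called. CDH13, the GPI-anchored T-cadherin that lacks a cytoplasmic tail, had 8, 3 and 5 counts with shSCR1 and 43, 37 and 36 counts with shBRG1 in 501Mel cells (log2 fold change 2.46, SE 0.34). It passed the count filter there only through the shBRG1 samples. In Hermes 3A shBRG1 its log2 fold change was 1.15 (adjusted p = 0.051 in edgeR, not called), though called with library sizes (1.26) and without shSCR replicate 3 (1.56), and it was too low to be tested in both shMITF comparisons. CDH26 was tested in Hermes 3A cells and not called, and CDH16 and CDH17 had at most 8 counts in any sample.

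PCDH7, a non-clustered protocadherin (chr4:30720415-31146805, plus strand, GRCh38), was higher in all 4 comparisons. In 501Mel cells it went from 8, 16 and 8 counts to 124, 139 and 134 counts with shBRG1 (log2 fold change 3.25, SE 0.23, adjusted p = 4.8e-12 in edgeR). With shMITF it went from 1 and 10 counts to 64 and 79 counts (log2 fold change 3.89, SE 0.53, adjusted p = 0.0018 in edgeR), and this rise was 3.07 and still called with both control groups pooled. Against shSCR1 or shSCR2 alone, PCDH7 passed the count filter only through the knockdown samples, so that those calls only describe levels. In Hermes 3A cells it was at 11.6, 10.2 and 11.8 CPM with shSCR, 21.0, 22.1 and 21.9 CPM with shBRG1 and 17.96, 17.1 and 24.7 CPM with shMITF. All 6 knockdown samples lay above the 3 controls, and the log2 fold changes of 0.96 (SE 0.074) and 0.86 (SE 0.18) passed the p threshold but not the fold threshold.

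PCDH17 rose with shBRG1 in 501Mel cells from 0.633, 0.645 and 0.701 CPM to 2.70, 2.77 and 2.52 CPM (log2 fold change 1.96, SE 0.16, adjusted p = 1.2e-10 in edgeR). PCDH15 rose in both 501Mel comparisons (1.93 and 2.08), the second not called with the control groups pooled. In the second, with shMITF, PCDH15 passed the count filter only through the shMITF samples. PCDH8 and PCDH19 fell with shBRG1 in 501Mel cells by 1.34 and 1.35, and neither was called with the control groups pooled (adjusted p = 0.17 and 0.41 in edgeR). In Hermes 3A cells no non-clustered protocadherin was called by edgeR or changed past 1.04 on the log2 scale. PCDH1 was at 0.540, 10.7 and 2.38 CPM in Hermes 3A shMITF against 2.26 to 2.60 CPM with shSCR, so that replicate 2 alone was high.

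The beta protocadherins rose as a group with shBRG1 in Hermes 3A cells. Of 15 beta genes, 13 were tested and 10 were called higher, 76.9% of those tested against 5.78% of all genes tested. The median log2 fold change was 1.53 over the 13 tested beta genes against 0.01 over all genes tested. In 12 of the 15, every shBRG1 sample lay above every shSCR sample, the exceptions being PCDHB1, which was listed at 0, PCDHB4 and PCDHB12. The sum over the cluster was 11.2, 11.6 and 11.6 CPM with shSCR and 33.2, 26.9 and 28.9 CPM with shBRG1. PCDHB2 (chr5:141094578-141098703, plus strand, GRCh38) was the most abundant, at 3.83, 3.50 and 3.90 CPM with shSCR and 12.3, 9.68 and 10.8 CPM with shBRG1 (log2 fold change 1.55, SE 0.11, adjusted p = 6.6e-13 in edgeR). PCDHB15, at the other end of the cluster, went from 1.07, 1.76 and 1.00 CPM to 3.79, 2.94 and 3.26 CPM (log2 fold change 1.41, SE 0.20). PCDHB7 went from 0.867, 0.970 and 0.982 CPM to 2.97, 2.41 and 2.73 CPM (log2 fold change 1.53, SE 0.19). The other 7 called genes had log2 fold changes from 1.21 (PCDHB13) to 2.77 (PCDHB11), and PCDHB14 was 0.92 higher and not called. PCDHB6, PCDHB8 and PCDHB11 held at most 10 counts in any shSCR sample and passed the count filter only through the shBRG1 samples. Some beta genes, PCDHB8 and PCDHB13 among them, are close in sequence, and reads shared between them may have been split or dropped.

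**Figure D3:**
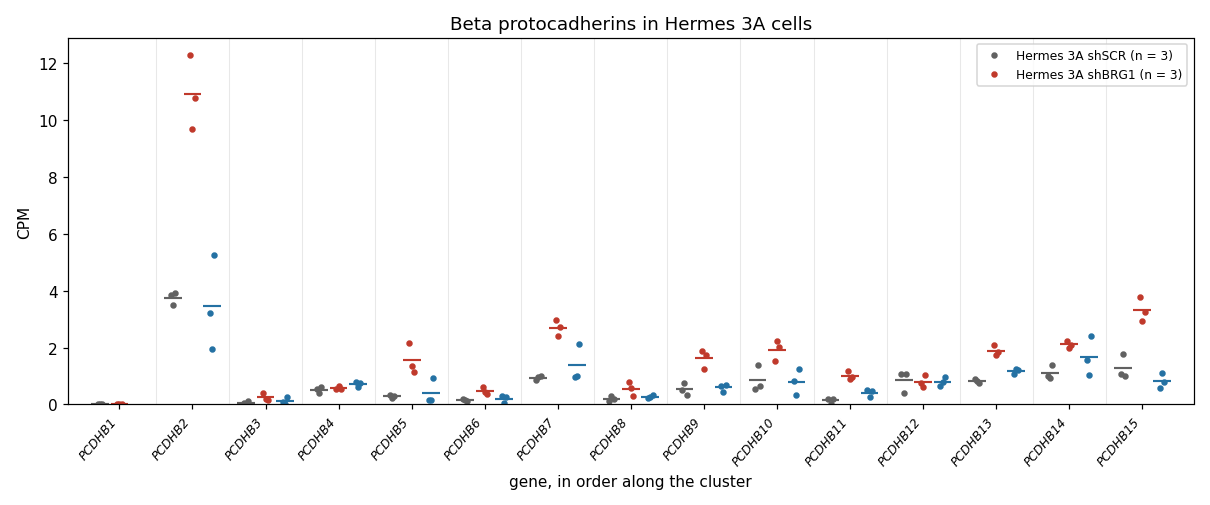
CPM (y axis) of the 15 beta protocadherins in order along their cluster (x axis) in Hermes 3A cells, with a point per sample and a line at the mean of the 3 samples of each group; PCDHB1 was not listed for shMITF. With shBRG1, 12 genes have all 3 samples above the shSCR samples, while the shMITF samples overlap those of shSCR for genes other than PCDHB11 and PCDHB13.

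Beta promoters share a short sequence, which is shown for genes that were called and, for contrast, for PCDHB4 and PCDHB12, which were not. RefSeq promoter windows (250 bases before to 50 after the start of a gene, GRCh38.p14) were found for 13 of the 15 beta genes and for 68 of the 86 members. The most widely shared run of 9 bases among the beta windows was GGTGGCGCT, present in 12 of 13, all but PCDHB1, on the strand of the gene. On either strand it was present in 0.501% of all 35116 windows and in none of the alpha, gamma or other member windows. This run was picked from these windows, so that its frequency there is a description. Stretches of 60 bases around it are printed 5′ to 3′, all on the plus strand, with the shared run in capitals.

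PCDHB2, chr5:141094535-141094594: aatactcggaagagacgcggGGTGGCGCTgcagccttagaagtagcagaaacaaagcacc
PCDHB5, chr5:141135170-141135229: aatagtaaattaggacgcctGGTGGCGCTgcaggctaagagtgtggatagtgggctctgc
PCDHB7, chr5:141172557-141172616: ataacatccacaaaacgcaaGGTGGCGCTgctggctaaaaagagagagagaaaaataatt
PCDHB10, chr5:141192290-141192349: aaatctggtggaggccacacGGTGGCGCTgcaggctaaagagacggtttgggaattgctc
PCDHB13, chr5:141213856-141213915: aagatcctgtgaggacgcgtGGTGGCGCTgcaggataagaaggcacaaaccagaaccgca
PCDHB15, chr5:141245305-141245364: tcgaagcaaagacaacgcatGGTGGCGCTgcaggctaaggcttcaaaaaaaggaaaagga
PCDHB4, chr5:141121714-141121773: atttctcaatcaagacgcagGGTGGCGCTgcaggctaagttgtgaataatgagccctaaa
PCDHB12, chr5:141208634-141208693: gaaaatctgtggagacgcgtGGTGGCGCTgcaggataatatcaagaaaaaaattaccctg

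The run began between 84 and 2 bases before the start site in the 12 windows. PCDHB4 and PCDHB12, which hold it, had log2 fold changes of 0.17 and -0.13 with shBRG1, so that the run was found in called and uncalled beta genes alike. CACGTG, an E-box of the kind that MITF-family factors bind, was present in 3 of the 68 members with a window (PCDHA9, PCDHA10 and PCDHA11). It was in 3.45% of the windows of members, against 7.26% of all windows. CATGTG, another such E-box, was present on either strand in 9 of the 68, among them 7 alpha genes (53.8% of the 13 alpha windows). It was in 10.3% of the windows of members, against 11.1% of all windows.

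With shMITF in Hermes 3A cells no beta gene of 12 tested was called in edgeR, the median log2 fold change was 0.47 against 0.05 over all genes tested, and the sum was 11.5, 9.20 and 17.7 CPM. PCDHB2 was at 3.21, 1.94 and 5.25 CPM, around its control level. In 501Mel cells beta RNA was near the limit of detection in all groups, with sums between 0.625 and 1.66 CPM. Only PCDHB2, PCDHB3 and PCDHB9 passed the count filter in 501Mel shBRG1, of which PCDHB2 (0, 9 and 1 counts to 29, 25 and 21 counts) and PCDHB3 were called higher, and none passed it in 501Mel shMITF. PCDHB2 and PCDHB3 passed it only through the shBRG1 samples, so that their calls only describe levels.

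Alpha protocadherins summed to less than the beta genes in every group but 501Mel shBRG1. Their sum went from 2.72, 3.09 and 2.81 CPM with shSCR to 6.00, 6.10 and 6.64 CPM with shBRG1 in Hermes 3A cells, where PCDHA1 and PCDHA7 were called higher (1.63 and 1.10) among 5 genes tested. In 501Mel cells the sum went from 0.429, 0.360 and 0.204 CPM with shSCR1 to 2.31, 1.98 and 1.99 CPM with shBRG1. Here 7 of 15 alpha genes had no count in any shSCR1 sample and 1 had none with shBRG1. PCDHA2 (0, 0 and 1 counts to 14, 19 and 14 counts) and PCDHA3 (3, 2 and 0 counts to 32, 24 and 17 counts) were the alpha genes tested, and both were called higher. PCDHA2 and PCDHA3 here, and PCDHA1 in Hermes 3A cells, passed the count filter only through the shBRG1 samples. Their calls therefore only describe levels. In Hermes 3A shMITF the sum was 3.16, 2.22 and 4.51 CPM, and none of 3 tested alpha genes was called by edgeR.

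The gamma protocadherins held most of the clustered RNA and changed less in Hermes 3A cells. With shBRG1 their sum was 336.6, 316 and 309 CPM against 306, 301 and 287 CPM, and only PCDHGA1 was called (log2 fold change 1.04, SE 0.21) of 20 tested. With no threshold on the fold change, 10 of the 20 were higher and 1 was lower at adjusted p under 0.05 in edgeR. PCDHGA12 (chr5:141430589-141512979, plus strand, GRCh38) was at 82.3, 78.3 and 74.7 CPM against 47.9, 52.3 and 46.7 CPM. Its log2 fold change of 0.69 (SE 0.051) passed the p threshold but not the fold threshold. PCDHGC3 was at 172, 160 and 160 CPM against 191, 184 and 176 CPM (log2 fold change -0.15). With shMITF the 3 Hermes 3A samples scattered widely, the sum being 165, 244 and 389 CPM and PCDHGA12 25.6, 39.1 and 76.3 CPM, on both sides of the controls.

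In 501Mel cells shBRG1 changed gamma genes in both directions. Their sum was 26.8, 22.2 and 24.8 CPM against 22.6, 24.2 and 21.6 CPM with shSCR1, which overlapped, and 13.6 and 13.7 CPM with shSCR2. Without TMM scaling every shBRG1 sample (27.9 to 33.98 CPM) lay above every shSCR1 sample (22.5 to 24.8 CPM). PCDHGA12 rose from 30, 40 and 19 counts to 331, 244 and 225 counts (log2 fold change 2.79, SE 0.17, adjusted p = 2.5e-13 in edgeR), or by 1.73 on the log2 scale with both control groups pooled. PCDHGB7 fell from 2.31, 3.07 and 2.69 CPM to 0.675, 0.825 and 0.885 CPM (log2 fold change -1.83, SE 0.17, adjusted p = 7.8e-10 in edgeR), or -1.65 pooled. PCDHGA11, PCDHGB6 and PCDHGC4 also rose (1.20, 1.62 and 1.29), and PCDHGA2, PCDHGA10 and PCDHGC5 also fell (-2.23, -1.16 and -1.67). The falls of PCDHGA2, PCDHGA10 and PCDHGC5 and the rise of PCDHGC4 were not called with the control groups pooled, whereas those of PCDHGB6 and PCDHGA11 were. PCDHGC4 passed the count filter against shSCR1 only through the shBRG1 samples. With library sizes in place of TMM the median of all genes moved by 0.35 on the log2 scale in this comparison, and PCDHGB7 and PCDHGA12 stayed on their side at -1.48 and 3.14.

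With shMITF in 501Mel cells 6 of 16 tested gamma genes were called higher, 37.5% against 5.59% of all genes tested. All were of the A subfamily: PCDHGA2, PCDHGA4, PCDHGA5, PCDHGA6, PCDHGA7 and PCDHGA8, by 1.44 to 2.62 on the log2 scale. PCDHGA2, PCDHGA4 and PCDHGA7 passed the count filter only through the shMITF samples, so that their calls only describe levels. PCDHGA6 went from 0.684 and 0.679 CPM with shSCR2 to 1.74 and 1.85 CPM, and the gamma sum from 13.6 and 13.7 CPM to 24.3 and 22.8 CPM. The shSCR1 samples lay above the shMITF samples for PCDHGA6, at 2.17, 2.31 and 2.89 CPM. None of the 6 was called with both control groups pooled, where their log2 fold changes were between -0.03 and 0.95. Without shMITF replicate 2 or without shSCR2 replicate 2, the members called higher in this comparison went from 8 to 2, and without shSCR2 replicate 1 to 5.

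**Figure D4:**
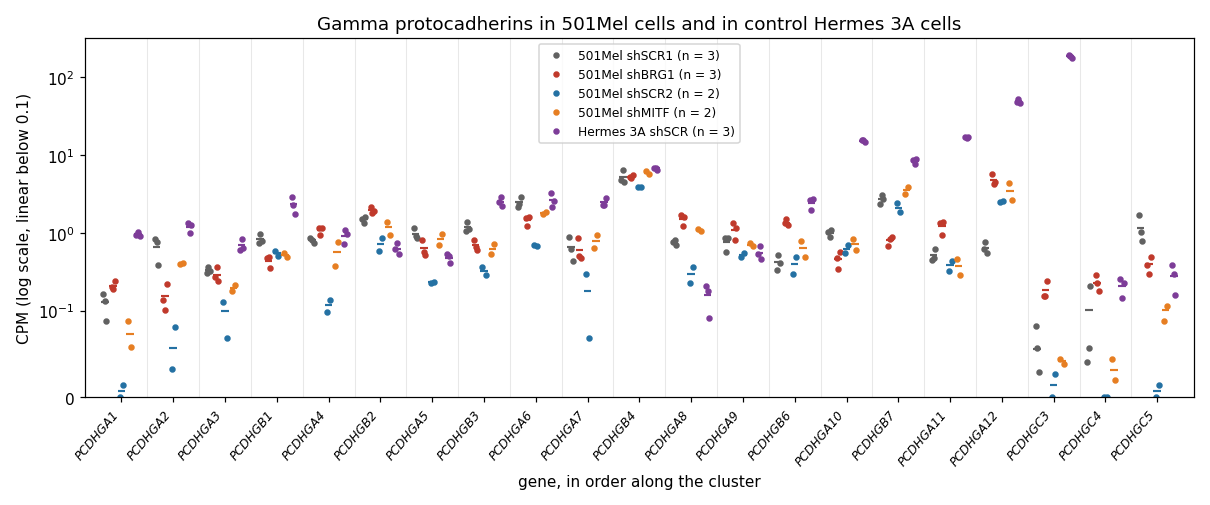
CPM (y axis, logarithmic and linear below 0.1) of the 21 gamma protocadherins in order along their cluster (x axis) in the 4 groups of 501Mel cells and in Hermes 3A shSCR, with a point per sample and a line at the group mean. Hermes 3A points stand far above those of 501Mel cells for PCDHGA10, PCDHGA11, PCDHGA12 and PCDHGC3 but not for PCDHGB4, and the shSCR2 points lie below the shSCR1 points for every PCDHGA gene but PCDHGA12.

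The difference between the lines in each knockdown's effect was tested as a contrast in 1 fit. The shBRG1 effect in 501Mel cells includes the fall of MITF and SOX10 given above. For shBRG1, 29 of 70 tested members differed (41.4%), against 26.9% of all 21697 genes tested, 10 with a more positive effect in 501Mel cells and 19 with a more negative one. CDH3 and PCDHGB7 had a lower effect in 501Mel cells (differences of -1.66, SE 0.066, and -1.97, SE 0.20), and PCDH7, PCDHGA12 and CDH2 a higher one (2.26, 2.07 and 1.60). For the beta genes the contrast says little, since all but PCDHB2, PCDHB3, PCDHB6 and PCDHB9 held at most 8 counts in any shSCR1 or shBRG1 sample of 501Mel cells and were tested through the Hermes 3A samples. PCDHB15, with a difference of -2.71, held between 2 and 8 counts there. For shMITF, PCDH7 was the 1 member of 63 with a more positive effect in 501Mel cells (2.99, SE 0.47) and CDH19 the 1 with a more negative one (-2.06, SE 0.43), together 3.17% of the members against 2.64% of all 19284 genes tested. For CDH3 and CDH1 the differences in the shMITF effect were 2.15 and 2.88 and were not called, and without Hermes 3A shMITF replicate 2 they were 3.19 and 4.29 and called (adjusted p = 0.00043 and 0.0011 in edgeR).

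Genes that work with these cadherins were read from fixed lists. Of 16 catenins and junction partners, 2 rose and 6 fell of 15 tested in 501Mel shBRG1, with CTNNB1, the beta-catenin gene, down by 2.25 (SE 0.050). In 501Mel shMITF 4 of 14 rose and none fell in edgeR, 28.6% higher against 5.59% of all genes. In Hermes 3A shBRG1 3 of 14 rose and 1 fell, 21.4% and 7.14% against 5.78% and 3.47%. In Hermes 3A shMITF 1 of 13 rose, 7.69% against 3.35%. CTNNA2, the neural alpha-catenin, rose in 3 of the 4 comparisons (1.57, 3.66 and 1.16) and had -0.17 in Hermes 3A shMITF, and CTNNA1 rose there by 1.07. Of 11 genes that regulate the protocadherin clusters, such as CTCF, cohesin subunits and SMCHD1, the cohesin gene SMC1A and its loader NIPBL fell in 501Mel shBRG1 (-1.15 and -1.06), and none was called by edgeR in the other 3 comparisons. SMC1A and NIPBL make up 18.2% of the 11 genes, near the 17.4% of all genes that fell in 501Mel shBRG1. CTCF had log2 fold changes of -0.48, -0.50, -0.01 and 0.43 with, in turn, shBRG1 and shMITF in 501Mel cells and shBRG1 and shMITF in Hermes 3A cells. Of 25 further cadherin superfamily genes, 4 rose and 5 fell of 22 tested in 501Mel shBRG1, 3 rose of 16 in 501Mel shMITF, 3 rose and 1 fell of 17 in Hermes 3A shBRG1 and 1 rose and 1 fell of 16 in Hermes 3A shMITF. In 501Mel shBRG1 these are 18.2% and 22.7%, near the 21.7% and 17.4% of all genes tested there. The shares that rose were 18.8% in 501Mel shMITF, 17.6% in Hermes 3A shBRG1 and 6.25% in Hermes 3A shMITF. Those of all genes were 5.59%, 5.78% and 3.35%. The shares that fell in the 2 Hermes 3A comparisons were 5.88% and 6.25%, against 3.47% and 4.04%. The lists are small, and their counts are given as a description beside the shares of all genes printed above for each comparison. FAT4, a giant cadherin of planar polarity and growth control, was called higher in all 4 comparisons (1.09, 1.79, 1.57 and 1.08).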

How the data were processed

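The 19 count files hold raw read counts per Ensembl gene that the authors deposited, 1 file per sample, without normalization. The submitters' processing notes name CASAVA 1.8, TopHat 1.4.1, Bowtie 0.12.7 and the hg19 build. The counting program, its annotation and whether strand was used are not given in the sources used here. RNA was depleted of ribosomal RNA and treated with a duplex-specific nuclease, which lowers abundant cDNAs. Each sample held between 29158502 and 78857900 gene counts, and arms of 2 or 3 samples limit the precision.

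Groups came from the sample labels. The members and lists were chosen with earlier results of these data known. Symbols (41130 of 44717 identifiers), exon lengths and coordinates came from reference tables and GENCODE 29 on GRCh38. Each comparison was fitted with its own groups in edgeR 4.0.16 (R 4.3.3): TMM, filterByExpr, robust glmQLFit and glmQLFTest, with Benjamini-Hochberg adjustment over all genes tested. Standard errors were derived as the size of the log2 fold change over √F. The fits, tested on simulated data with 200 changed genes each, recovered 200 in the Hermes 3A shBRG1 design (17203 genes) and in every other design. The changed genes were well counted, had a log2 fold change of 2 in size and shared the same spread. The recovery therefore does not measure power for sparse genes, for smaller changes or for samples that scatter widely. Named throughout were CDH1, CDH2, CDH3, CDH13 and CDH19, and in each comparison any called member with a mean of at least 100 counts in the higher group. Other members were named where their group is described. Same-numbered samples did not deviate together, so that no replicate block was used. Alternatives were DESeq2 1.42.0, library sizes, other filters, a replicate block, wider fits, pooled control groups and leaving out each sample.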

Additional observations from a re-analysis of the deposited data

Results flagged for a closer look

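The effect of a knockdown differed between 501Mel and Hermes 3A cells, by a contrast in edgeR with adjusted p under 0.05 and a difference over 1 on the log2 scale, for 8 named genes with shBRG1 and for 2 with shMITF. Each value is the log2 fold change in 501Mel cells minus that in Hermes 3A cells.

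With shBRG1 the difference was -1.66 for CDH3 (SE 0.066, adjusted p = 8.1e-23 in edgeR), which fell in 501Mel cells and was -0.16 in Hermes 3A cells. It was -1.97 for PCDHGB7 (SE 0.20), which fell in 501Mel cells and was 0.12 in Hermes 3A cells. It was 2.07 for PCDHGA12 (SE 0.16) and 2.26 for PCDH7 (SE 0.24), both higher in both lines and more so in 501Mel cells. For PCDHGA12 this rests on shSCR1 as the control, since its change in 501Mel cells was 2.79 with shSCR1 and 1.73 with both control groups pooled, against 0.69 in Hermes 3A cells, and the difference was not tested with pooled controls. It was 1.60 for CDH2 (SE 0.46), whose 501Mel samples held at most 23 counts. It was 1.04 for CDH23 (SE 0.33), a difference below 1 when any of 4 samples was left out, the lowest being 0.77 without 501Mel shSCR1 replicate 2 or Hermes 3A shBRG1 replicate 2. It was -1.15 for CDH19 (SE 0.10), and -0.88 with library sizes in place of TMM. It was -2.71 for PCDHB15 (SE 0.61), which rose in Hermes 3A cells and was nearly undetected in 501Mel cells.

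With shMITF the difference was -2.06 for CDH19 (SE 0.43, adjusted p = 0.026 in edgeR), and it was no longer called without either replicate 2 of 501Mel cells (-1.80 without shMITF replicate 2, -1.45 without shSCR2 replicate 2) or without any Hermes 3A shSCR sample (adjusted p up to 0.079). It was 2.99 for PCDH7 (SE 0.47, adjusted p = 0.0060 in edgeR), called without each sample in turn.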

How the results depend on the processing

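Several counts of called members moved by more than 1.5 times under other settings. With at least 10 counts required in every sample, fewer genes were tested. Members called higher then fell from 17 to 9 and lower from 10 to 6 in 501Mel shBRG1, higher from 8 to 1 in 501Mel shMITF, higher from 16 to 8 and lower from 2 to 0 in Hermes 3A shBRG1, lower from 3 to 1 in Hermes 3A shMITF, and higher from 13 to 4 and lower from 28 to 10 between the lines. With both 501Mel control groups pooled, 3 members were lower with shBRG1 and 1 was higher with shMITF. With DESeq2, 3 members were higher in 501Mel shMITF, 1 was lower in Hermes 3A shBRG1 and 3 had a higher shMITF effect in 501Mel cells in place of 1. Members lower in Hermes 3A shBRG1 were 1 with all groups of the line in 1 fit, with library sizes or with no filter. With no threshold on the fold change, 17 were lower in 501Mel shBRG1, and 31 were higher and 8 lower in Hermes 3A shBRG1. Leaving out 1 sample at a time gave between 2 and 10 members higher in 501Mel shMITF, 0 and 2 lower in Hermes 3A shBRG1, 0 and 4 lower in Hermes 3A shMITF, and 1 and 4 higher and 0 and 1 lower for the difference in the shMITF effect. The causes of these shifts, other than fewer genes or samples, were not tested.

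Among named genes, the sign turned for CDH19 in 501Mel shBRG1 (0.10 with library sizes), and in 501Mel shMITF for CDH1 (0.43 without shMITF replicate 1, 0.21 without shSCR2 replicate 1, range -0.99 to 0.43 over samples left out) and CDH19 (-0.10 and -0.22 without the same samples, range -0.22 to 0.79). CDH1 in Hermes 3A shMITF was also not called with no filter on low counts (adjusted p = 0.15 in edgeR). Same-numbered samples did not deviate together, with correlations between -0.14 and 0.29. With a replicate block, the members lower in Hermes 3A shMITF went from 3 to 0, with CDH1 at -3.46 (adjusted p = 0.052 in edgeR), and the other counts stayed within 1.5 times. Groups of 2 or 3 samples limit all these tests, and genes under about 10 counts were rarely testable.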
